A study of Mus musculus with 12 samples.

Results

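The regions described here carried a peak of H3K9/14 acetylation in 3 of 3 wild-type libraries and in 0 of 3 GLUT3-deficient libraries, and lay more than 2 kb from every end of a protein-coding gene. GLUT3 is a high-affinity glucose transporter encoded by Slc2a3. The peaks of the 6 ChIP libraries, called on read pairs, were joined into 56607 regions on chromosomes 1 to 19, X and Y, of which 42235 lay away from gene ends. Of these, 2424 regions met the rule (WT-only regions), 1112 inside protein-coding genes and 1312 between them. The peak calls of these same 6 libraries chose the regions, so peak presence, peak fold and the genotype difference at these regions are descriptions without a test.

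The libraries came from CD4+ T cells of C57BL/6 mice. In the KO group the Slc2a3 allele is Slc2a3-fl/fl with Cd4-cre, a Cre transgene that is active from thymic T cell development onward, and the WT group is labelled wild type. Naive T cells of both groups were polarised towards T helper 17 (Th17) cells in culture for 3 days and then stimulated for 3 h with PMA and ionomycin while protein secretion was blocked. The 6 ChIP samples were barcoded in their nuclei, pooled and precipitated together. Input samples were not read here, and whether they served as a control in the authors' peak calls is not stated. Whether WT cells carried Cd4-cre is not stated, nor whether replicates came from separate mice, so spreads between libraries may be technical.

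Acetylation of lysines 9 and 14 of histone H3 is placed by histone acetyltransferases from acetyl-CoA, and is found at active promoters and at active enhancers. Enhancers often lie in introns or far between genes, and they tend to differ between cell types more than promoters do. Th17 cells are helper T cells that make IL-17A and IL-17F with the help of the nuclear receptor RORα, and they rely on glucose uptake and glycolysis once activated.

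A small set of WT-only regions held an annotated transcription start, and their promoter windows show what kind of sequence the mark covered there. Of the 2424 regions, 49 (2.02%) contained 59 RefSeq start windows of 51 genes, 35 of them long non-coding RNAs and 16 protein-coding. Per megabase of region this was 20.2 starts, against 16.9 in KO-only regions and 35.9 in regions with a peak in all 6 libraries, both away from gene ends. The protein-coding windows shown are the 4 with the highest mean WT fold among those lying whole inside a region that exceeded the fold cut of 3.85 explained further on. They come from RefSeq, build GRCm38.p6, and run from 250 bases before to 50 bases after an alternative start inside the gene span. Capitals mark a match to one of the searched motifs, and windows without capitals held none.
Crmp1, chr5:37245514-37245813, plus strand: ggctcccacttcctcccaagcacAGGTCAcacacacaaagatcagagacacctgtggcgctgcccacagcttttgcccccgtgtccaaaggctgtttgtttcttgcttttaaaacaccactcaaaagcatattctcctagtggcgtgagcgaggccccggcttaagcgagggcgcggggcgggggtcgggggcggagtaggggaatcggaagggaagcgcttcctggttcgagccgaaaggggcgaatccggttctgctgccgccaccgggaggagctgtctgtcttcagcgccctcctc
Rgl1, chr1:152625168-152625467, minus strand: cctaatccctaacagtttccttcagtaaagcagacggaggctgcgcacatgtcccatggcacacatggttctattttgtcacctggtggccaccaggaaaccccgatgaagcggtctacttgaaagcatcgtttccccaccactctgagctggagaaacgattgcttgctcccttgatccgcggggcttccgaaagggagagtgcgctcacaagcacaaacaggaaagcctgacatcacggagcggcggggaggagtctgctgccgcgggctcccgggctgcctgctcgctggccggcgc
Maneal, chr4:124862122-124862421, minus strand: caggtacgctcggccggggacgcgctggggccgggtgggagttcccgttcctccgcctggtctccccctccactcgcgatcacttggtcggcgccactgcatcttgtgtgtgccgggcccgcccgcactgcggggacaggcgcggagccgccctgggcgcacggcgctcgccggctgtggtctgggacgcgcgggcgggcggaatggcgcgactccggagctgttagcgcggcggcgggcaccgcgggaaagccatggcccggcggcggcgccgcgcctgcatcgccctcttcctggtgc
Pfkfb3, chr2:11502041-11502340, minus strand: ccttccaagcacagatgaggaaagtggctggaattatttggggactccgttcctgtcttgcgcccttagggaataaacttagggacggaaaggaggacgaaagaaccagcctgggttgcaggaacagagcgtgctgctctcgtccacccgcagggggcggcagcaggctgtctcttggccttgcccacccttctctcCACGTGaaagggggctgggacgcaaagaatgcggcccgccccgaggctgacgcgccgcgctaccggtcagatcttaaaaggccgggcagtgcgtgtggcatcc

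The 4 windows held 20, 19, 45 and 20 CpG dinucleotides in the order printed. Across all 59 windows in WT-only regions the median was 5 CpG, against 12 in the 1308 windows of regions with a peak in all 6 libraries and 7 in all 32851 windows. The motifs searched on both strands were TGANTCA of AP-1, the core site AGGTCA of ROR receptors, the E-box CACGTG and CCGGAAGT of ETS factors. AP-1 letters were in 6.78% of windows in WT-only regions, against 7.81% of all windows. The ROR core site was in 18.6% against 16.3%, the E-box in 10.2% against 7.15%, and the ETS letters in 0 of 59 windows against 3.89% of all. These counts rest on 4, 11, 6 and 0 windows, and a match is a match of letters only.

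Pfkfb3 encodes the enzyme that makes fructose 2,6-bisphosphate, an activator of glycolysis. Its region (chr2:11500970-11504973) had WT folds of 4.38, 5.59 and 6.35 in replicates 1 to 3. A fold is the authors' enrichment over background of the strongest peak in a library, and no KO fold exists since no KO library has a peak. The log2 fold change there in the authors' deposited table, KO over WT, was -1.32 (FDR 2.14e-06), so the region was lower in KO. Crmp1, which encodes a cytoplasmic protein of semaphorin signalling, had folds of 6.54, 8.20 and 7.18 in the WT libraries. Rgl1 encodes an exchange factor for Ral GTPases and had folds of 7.03, 6.90 and 4.59, and Maneal encodes a Golgi mannosidase-like protein with folds of 4.90, 6.92 and 4.90. In the authors' deposited table these 3 regions had log2 fold changes of -2.26, -1.50 and -2.38.

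WT-only regions also held 2 microRNA genes, Mir1951 and Mir7228. The widest of 5 such regions in the gene BC052040 (chr2:115632248-115639538) held Mir1951, and had WT folds of 8.83, 6.19 and 8.99. The mature sequence at chr2:115638777-115638798, plus strand, is shown with its seed, bases 2 to 8, in capitals.
mmu-miR-1951: gUAGUGGAgacugguguggcua

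Library depth differed between the genotypes and bears on every count that follows. Mean fragment coverage, recovered from the fold and p of the deposited peaks, was 1.85, 2.29 and 1.92 in KO replicates 1 to 3 and 3.99, 3.48 and 2.97 in WT replicates 1 to 3. These values were divided by a recovered scale of peak heights, 0.89 in WT replicate 1 and 0.92 in WT replicate 2. At the scale of the peak calls the WT values were 3.55, 3.21 and 2.97, and the KO values were unchanged. After the division, mean KO coverage came to 0.58 times that of WT, and the groups did not overlap (two-sided exact permutation p = 0.100, the smallest that 3 against 3 libraries allow). At mean background the lowest peak called in a KO library had a fold of 3.85, 3.65 and 3.76, and in a WT library 3.15, 3.52 and 3.27. A KO library therefore needed a higher fold for a call, and absence of a peak is not absence of the mark. Genotype and depth cannot be told apart in peak calls, and neither can fewer cells with the mark and less mark per cell. KO replicate 3 had 11 peaks on chromosome Y and the other libraries 1 or 2, and the part of this in the results was not tested.

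T cell identity was checked by peaks over or within 5 kb of marker genes. All 7 T cell markers had peaks in every library, and their summed peak length was 63.6 to 66.2 kb in KO libraries and 89.2 to 93.5 kb in WT libraries. Of the 7 Th17 markers, 6 had peaks in all KO libraries and 7 in all WT libraries, over 79.0 to 94.7 kb in KO and 184 to 215 kb in WT. The marker without a peak in 1 KO library was Il17f. Ms4a1 and Pax5 of B cells, Cd8a, Ncr1, Lyz2, Hbb-bt and Gata1 had no peak in any library. The B cell marker Cd79a had peaks over 5.84 to 7.02 kb in KO and 7.40 to 8.23 kb in WT. CD8 T and NK cell markers summed to 5.96 to 8.17 kb in KO and 6.78 to 7.30 kb in WT, and myeloid markers to 6.32 to 6.98 kb in KO and 5.96 to 7.87 kb in WT. Erythroid marker peaks, all at Klf1, covered 0.446 to 1.65 kb in KO and 1.83 to 2.18 kb in WT. The T, Th17, B cell and erythroid sums did not overlap between genotypes, and all were lower in KO.

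Of the 16059 regions away from gene ends with a peak in 3 of 3 WT libraries, 15.1% had no peak in any KO library. Within 2 kb of gene ends the corresponding share was 3.86% of 11180 regions, or 431 regions. A further 1588 regions away from gene ends had 3 WT peaks and 1 KO peak, 1873 had 2 KO peaks and 10174 had peaks in all 6 libraries. The mirrored pattern, 3 KO peaks and 0 WT peaks, was found at 1078 regions away from gene ends. This count depends on single libraries, and was 1919 without KO replicate 1 and 1716 without KO replicate 3.

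WT-only regions were narrower and of lower fold than regions shared by all libraries. Their median width was 978 bp, with the middle 50% from 658 to 1490 bp and the widest at 11578 bp, and together they covered 2923 kb. KO-only regions had a similar median width of 988 bp, while regions with a peak in all 6 libraries had a median of 2506 bp and all regions away from gene ends one of 705 bp. The median fold of the strongest peak was 3.53, 3.52 and 3.69 in WT replicates 1 to 3. In KO-only regions it was 4.16, 4.02 and 4.20 in the KO libraries. Regions of all 6 libraries had medians of 5.96, 5.88 and 6.08 in KO and 5.47, 5.40 and 5.64 in WT.

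**Figure D1:**
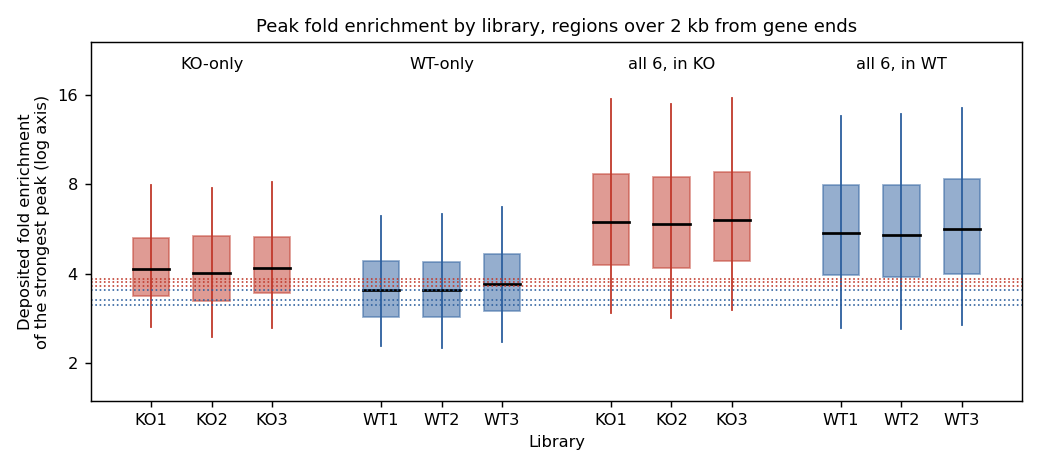
Deposited fold enrichment of the strongest peak (log axis) in regions over 2 kb from gene ends, by library; boxes give the middle 50%, black lines the median and whiskers the range from 5% to 95% of regions. Dotted lines give the lowest fold called at mean background in each KO library (red, 3.65 to 3.85) and each WT library (blue, 3.15 to 3.52), and the WT medians of WT-only regions, 3.52 to 3.69, lie between the lowest blue line and the highest red line.

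In 382 of the 2424 regions (15.8%) even the weakest WT fold exceeded 3.85, the highest of the KO cuts. Regions of all 6 libraries exceeded it in 60.3% of cases. Split by this cut, 5.19% of the 7355 regions with 3 WT peaks above it lacked a KO peak, against 23.5% of the 8704 regions at or below it. Thus 2042 WT-only regions had at least 1 WT peak at or under the lowest fold called at mean background in KO replicate 1. Lower folds were called where the background was higher. In 1600 regions every WT peak had a −log10 q of at least 5, and in 622 of at least 10.

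The choice was repeated with 2 WT and 2 KO libraries, leaving out the libraries with the same replicate number, to read the libraries whose peaks did not decide it. The regions were still those joined from the peaks of all 6 libraries, so the left-out libraries helped to set them. Each left-out KO library also had lower coverage than the left-out WT library. The shares are therefore no independent support for a genotype difference. With replicate 1 left out, 3777 regions were chosen, and 14.1% had a peak in the left-out KO library and 75.9% in the left-out WT library. With replicate 2 left out, these shares of 4309 regions were 17.7% in KO and 70.4% in WT. With replicate 3 left out, they were 16.6% in KO and 73.3% in WT of 4037 regions. The 3 choices share libraries, and in each the left-out WT library had a peak several times as often as the left-out KO library. For the mirrored KO-only choice, 59.9%, 72.6% and 64.1% had a peak in the left-out KO library and 23.8%, 11.4% and 14.8% in the left-out WT library. Over all regions away from gene ends, peaks were present in 45.1% to 50.1% of regions in KO libraries and 52.6% to 59.5% in WT libraries.

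**Figure D2:**
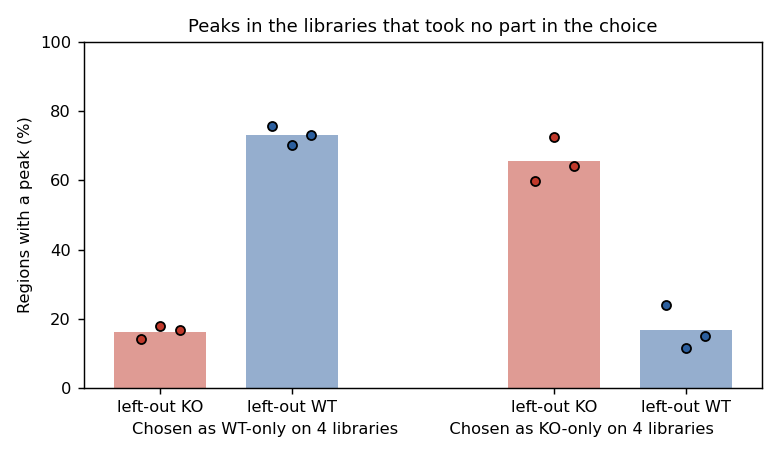
Share of regions chosen on 4 libraries that had a peak in each left-out library (points, replicates 1 to 3; bars, their mean). For the WT-only choice the left-out KO libraries lie at 14.1% to 17.7% and the left-out WT libraries at 70.4% to 75.9%. The regions themselves were joined from the peaks of all 6 libraries.

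The authors also called peaks on single reads. A single-read peak overlapped 13, 13 and 17 of the 2424 regions in KO replicates 1 to 3, and 871, 758 and 843 in WT replicates 1 to 3. In all, 34 regions had a single-read peak in at least 1 KO library and 1271 in at least 1 WT library. In 408 regions the single-read lists gave the same pattern of 3 WT and 0 KO peaks. Applied to the single-read lists from the start, the rule gave 2555 regions, but only 375 of the 2424 regions (15.5%) overlapped one of them. Of the 2555, 57.6% lay in a region that had read-pair peaks in all 3 KO libraries, so the choice of peak list decides which regions are WT-only.

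The authors' deposited table tested 40909 regions, and 46.3% of them were called lower in KO at an FDR of 0.05. It used the same contrast as the choice of regions, so its values here are a description. Of the 2424 regions, 1274 (52.6%) overlapped a region of the authors' deposited table, and 1218 of those (95.6%) were called lower, 1 was called higher and 55 were not called. The median log2 fold change was -1.71 (-1.59 inside genes and -1.78 between genes), against -0.62 over all regions of the authors' deposited table. Values at or below -1 were found for 1113 of the 1274 in the authors' deposited table, and at or below -2 for 444. The 299 regions above the fold cut of 3.85 with a value had a median of -2.05 in the authors' deposited table. The other 1150 regions had no value and were narrower (median 805 bp against 1197 bp). Regions of the authors' deposited table follow the single-read peaks. Of the 1274 regions with a value, 1271 had a single-read peak in a WT library, against 0 of the 1150. Only 34 of the 2424 had one in a KO library. A value was thus nearly always gained through WT, so the share called lower and the median are no support for the choice.

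**Figure D3:**
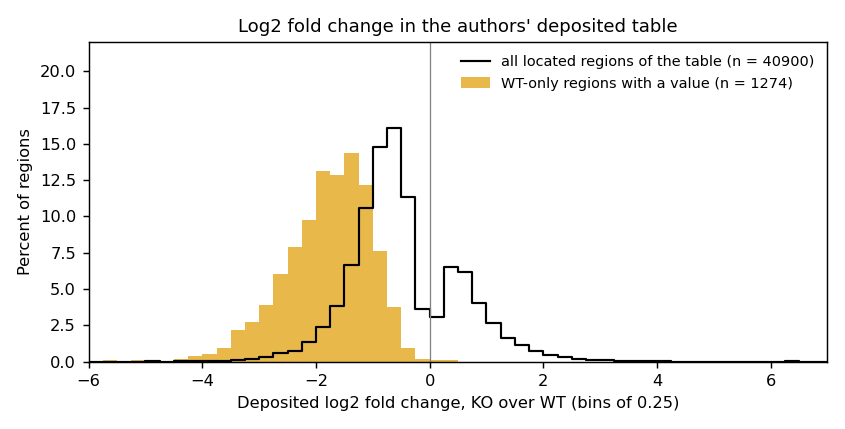
Log2 fold change of KO over WT in the authors' deposited table, as percent of regions in bins of 0.25, for the 1274 WT-only regions with a value (yellow) and for all located regions of the table (black line). The WT-only regions have a median of -1.71, against -0.62 over all regions.

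By position, 45.9% of WT-only regions lay inside protein-coding genes, against 59.9% of KO-only regions, 56.3% of regions of all 6 libraries and 53.3% of all regions away from gene ends. Above the fold cut the share inside was 40.3% of the 382 regions. Those between genes were a median of 31.5 kb from the nearest protein-coding gene, and 305 (23.2%) were more than 100 kb away. That share was 24.3% for KO-only regions, 18.6% for regions of all 6 libraries and 22.1% for all regions away from gene ends, so it lay near the overall share. Of the 1312 regions between protein-coding genes, 19.7% overlapped an annotated long non-coding RNA gene, against 25.9% of KO-only regions, 29.8% of regions of all 6 libraries and 23.3% of all regions between genes. By chromosome, leaving out Y with its 1 region of 3 WT peaks and 0 WT-only regions, the share of regions with 3 WT peaks that had no KO peak ran from 7.2% on chromosome 19 to 22.1% on the X chromosome, where 87 of 394 were WT-only.

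Many WT-only regions stood near a region with a KO peak, whether or not that region also had WT peaks. The nearest region with a peak in any KO library was a median of 3.86 kb away, and 30.1% had one within 1 kb. The mirrored KO-only regions had values of 3.98 kb and 30.3% to the nearest WT peak. The nearest region of all 6 libraries was a median of 9.45 kb away, and 17.7% had one within 1 kb. For KO-only regions these values were 11.0 kb and 15.6%. Of the WT-only regions, 41.9% were within 25 kb of another and 15.1% within 1 kb. Joined at 25 kb, they formed 26 chains of 5 or more that held 170 regions. Like values were not taken for other regions, so nearness is not shown to be particular to WT-only regions. Some neighbours may be pieces of a single stretch: with peaks joined within 500 bp, the rule gave 1834 regions instead of 2424.

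Among the 21887 annotated protein-coding genes, 1522 (6.95%) held a WT-only region or were the nearest gene to one, and 61 genes had 5 or more. A nearest gene is named for position only, since an enhancer may act on another gene. Rora led this count with 25 regions. Some of these lie less than 500 bp apart and may be pieces of a single stretch. Examples are chr9:69021194-69023384 beside chr9:69023574-69025676, and chr9:69100417-69102376 beside chr9:69102671-69113894. The Rora count, share and chains therefore depend on joining only peaks that overlapped or touched. They were not taken for Rora with peaks joined within 500 bp. A gene with more regions in WT can also hold more WT-only ones, so shares of regions with 3 WT peaks are given as well. RORα, the product of Rora, is a nuclear receptor that acts in Th17 cells. Of 43 regions in or nearest to Rora with 3 WT peaks, 58.1% were WT-only. The chain with the most regions, 15 within 98.0 kb (chr9:69017041-69114999), lay inside this gene, with 2 regions carrying a KO peak among them, and a second chain of 6 lay at chr9:69238421-69296835.

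Peaks over the Rora gene span covered 29.4, 34.8 and 34.2 kb in KO replicates 1 to 3, in 34, 27 and 24 peaks, and 132.0, 112.5 and 119.5 kb in WT replicates 1 to 3, in 73, 65 and 71 peaks. The widest WT-only region inside any gene was here (chr9:69102671-69113894, 11224 bp), with WT folds of 8.22, 7.01 and 8.73. A region of 4520 bp at chr9:69064810-69069329 had folds of 5.25, 6.88 and 4.85. In the authors' deposited table these had log2 fold changes of -3.81 (FDR 1.98e-22) and -4.31 (FDR 6.23e-22). All 18 Rora regions with a value in the authors' deposited table were called lower, as were 95.6% of all WT-only regions with a value. They ran from -4.31 to -1.09 with a median of -2.52, against -1.71 over all WT-only regions in the authors' deposited table. The weaker Rora regions include one of 323 bp at chr9:69238421-69238743 with folds of 3.10, 3.10 and 2.94, and 8 of the 25 exceeded the cut of 3.85 in all WT libraries.

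**Figure D4:**
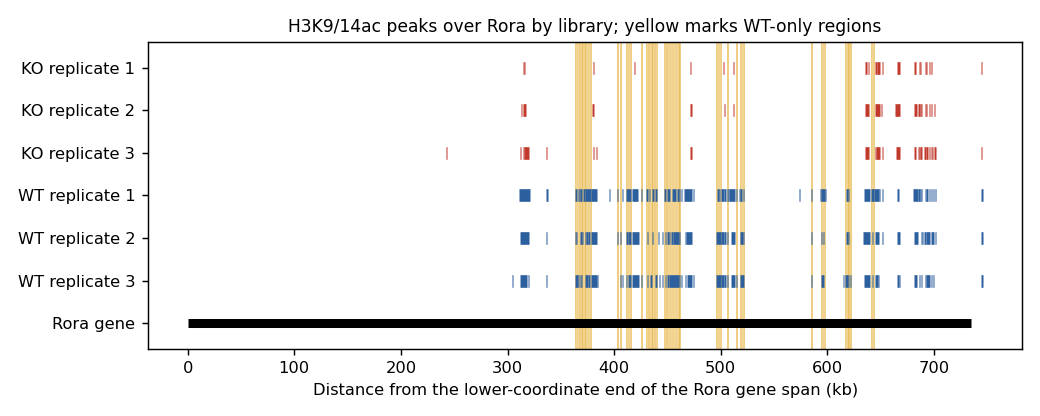
Peaks of each library over Rora, by distance in kb from the lower-coordinate end of the gene span (black bar), with the 25 WT-only regions in yellow. Most KO peaks (red) lie near both ends of the acetylated stretch, and the chain of 15 WT-only regions lies between them.

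Myc, which encodes a transcription factor that drives growth and metabolism of activated lymphocytes, was the nearest gene to 16 WT-only regions, all between genes and 142 to 855 kb away. Myc had 74 regions with 3 WT peaks nearest to it, of which 21.6% were WT-only. The peak over the Myc gene itself was of similar length in all libraries, at 4.4, 4.2 and 4.2 kb in KO replicates 1 to 3 and 4.3, 4.4 and 4.7 kb in WT replicates 1 to 3. All peaks in the window drawn around Myc covered less in KO. They came to 216.1, 227.6 and 215.4 kb in KO replicates 1 to 3 and 347.2, 366.2 and 383.7 kb in WT replicates 1 to 3. A chain of 7 WT-only regions spanned 68.1 kb at chr15:62424158-62492286, with 5 regions carrying a KO peak among them. Its widest, 4801 bp at chr15:62436057-62440857, had WT folds of 4.52, 6.88 and 9.09 and stood at -2.60 (log2, FDR 7.47e-14) in the authors' deposited table. The nearest pair, 142 and 160 kb from Myc, lay inside the long non-coding RNA gene Pvt1. On the other side of the gene, the region at chr15:61495681-61496595 had folds of 4.02, 3.99 and 4.98 and the lowest value of the group, -4.03 in the authors' deposited table.

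**Figure D5:**
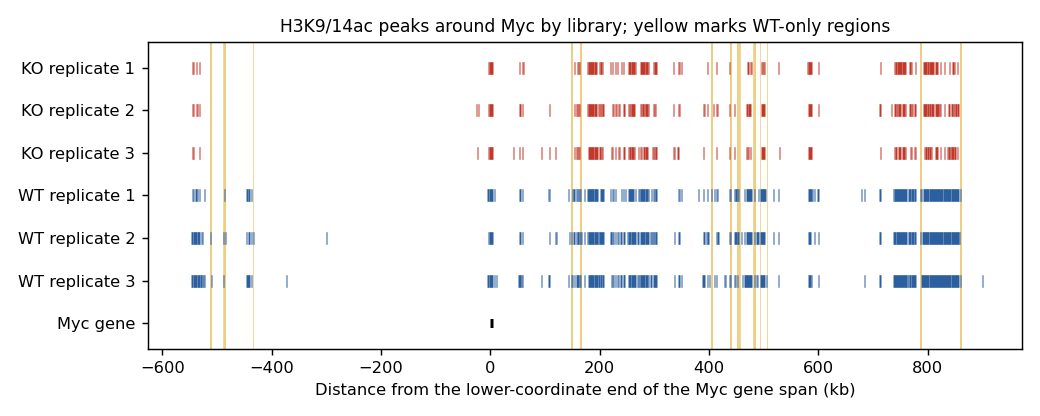
Peaks of each library around Myc, by distance in kb from the lower-coordinate end of the gene span (black bar), with WT-only regions in yellow. KO (red) and WT (blue) libraries share peaks at the gene and in parts of the stretch beyond it. Peaks in the window cover 215.4 to 227.6 kb in KO libraries and 347.2 to 383.7 kb in WT libraries. WT-only regions are scattered among the peaks, 142 to 855 kb from the gene.

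A stretch between the genes Foxo1 (ending at 52350109) and Cog6 (starting at 52982123) on chromosome 3 held 7 WT-only regions nearest to Foxo1 and 14 nearest to Cog6. FOXO1 is a transcription factor of quiescent and naive T cells, and COG6 is a subunit of a Golgi tethering complex. A chain of 10 lay within 76.6 kb at chr3:52849271-52925841. Its widest region, 4887 bp, had WT folds of 7.88, 8.13 and 7.64 and a log2 value of -2.42 (FDR 4.44e-18) in the authors' deposited table. Of the regions with 3 WT peaks, 53.8% nearest to Cog6 and 36.8% nearest to Foxo1 were WT-only.

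Cblb, which encodes a ubiquitin ligase that restrains T cell receptor signals, was nearest to 15 WT-only regions, 23.7 to 367 kb from the gene. The widest, 6837 bp at chr16:51701061-51707897, had folds of 4.66, 5.59 and 5.58 and a value of -3.24 in the authors' deposited table. Ets1, a transcription factor of T cells, was nearest to 11 regions, 138 to 328 kb away, and 4 of those overlapped the long non-coding RNA gene Gm27166. Stk26, a kinase gene on the X chromosome, was nearest to 9 regions, 69.2% of its 13 with 3 WT peaks. Of these, 7 formed a chain of 23.7 kb without any KO peak among them, and its region at chrX:50693129-50697693 had folds of 8.17, 3.02 and 7.98. The 5 Stk26 regions with a value in the authors' deposited table ran from -3.64 to -2.87.

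Rgs8 and Rgs16, whose products shorten G protein signals, shared a chain of 10 regions within 98.6 kb, with 7 regions carrying a KO peak among them. Trps1, which encodes a GATA-type repressor, had 12 WT-only regions of 27 with 3 WT peaks. Other genes with 7 included Ccnd2 (cyclin D2), Klf13 and Klf6 (zinc finger factors), Dusp10 (a kinase phosphatase), Zswim6 and Hdac9. Abcd3, a peroxisomal transporter gene, had 5 regions with 3 WT peaks, and all 5 were WT-only.

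Th17 lineage and effector genes were the list with the most WT-only regions. Of 25 genes, 13 had at least 1, with 50 regions in all, which was 26.5% of the 189 regions with 3 WT peaks at these genes against the 15.1% over all. Rora supplied 25 of them, and without Rora the share was 17.1% of 146. The Rora regions include close neighbours that may be pieces of a single stretch, so the list total depends on how peaks were joined. All 34 with a value in the authors' deposited table were called lower, with a median of -2.12. Nothing is read from that count, since 95.6% of all WT-only regions with a value in the authors' deposited table were called lower. The list was put together with earlier results of these data known, and its count is no independent support.

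Tgfbr2, the receptor subunit that binds TGF-beta, a Th17-inducing cytokine, was nearest to 7 regions, 5.82 to 192 kb away. The one nearest to the gene (chr9:116181183-116182159) had WT folds of 4.15, 4.86 and 3.74 and a value of -1.50 in the authors' deposited table. Il17a, the signature cytokine gene, was nearest to 2 regions, 6.43 and 29.8 kb away. The far one (chr1:20700236-20701136) had folds of 5.49, 2.03 and 4.13, and the near one (chr1:20740922-20741745) had 3.03, 1.85 and 2.24. Their log2 fold changes in the authors' deposited table were -1.92 and -1.31. Il17f was nearest to 2 regions with folds of 3.75, 3.57 and 3.67 and of 3.34, 4.87 and 2.29, and Il23r, the receptor that maintains Th17 cells, to 1 region with folds of 2.68, 5.82 and 5.76. None of these 5 exceeded the fold cut in every WT library.

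Il2 and Il21, neighbouring cytokine genes, shared a chain of 5 WT-only regions in 52.9 kb at chr3:37144751-37197640. Il2 drives T cell growth and Il21 is made by Th17 and follicular helper cells. The strongest of them (chr3:37177391-37180101) had WT folds of 4.27, 6.23 and 5.97 and a value of -2.0 in the authors' deposited table. Cd4, the gene of the helper T cell co-receptor, had 1 WT-only region 2.35 kb away with folds of 4.24, 3.70 and 3.12. Ifng and Foxp3, the genes of interferon gamma and the regulatory T cell factor, had 0 WT-only regions, with 2 and 0 regions of 3 WT peaks away from gene ends.

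Lymphocyte adhesion and homing genes had 25 WT-only regions at 8 of 21 genes. This was 29.8% of their 84 regions with 3 WT peaks, against the 15.1% over all, and 24.3% of 74 without S1pr1. S1pr1, the receptor for exit from lymph nodes, was nearest to 7 of its 10 regions with 3 WT peaks. Its strongest (chr3:115682037-115683461) had folds of 4.45, 6.21 and 6.20 and a value of -2.17 in the authors' deposited table. Another (chr3:115761913-115762955) was among the members taken as weakest, a ranking not made by fold, with folds of 3.70, 1.88 and 3.34. Cxcr5, the receptor for B cell follicles, had 5 of 7, and Cxcr4, a chemokine receptor for bone marrow and lymphoid homing, had 7 of 24. The Cxcr5 region inside the gene (chr9:44517055-44519856) had folds of 7.01, 3.87 and 4.18. In this list 14 of 15 regions with a value in the authors' deposited table were called lower, close to the 95.6% of all WT-only regions, and the uncalled one was near Cxcr4 (-0.61, FDR 0.0587).

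Naive and quiescence transcription factors had WT-only regions at 7 of 14 genes, 16.4% of their 207 regions with 3 WT peaks, a share near the 15.1% over all. Foxp1, which maintains naive T cells, had 6 of 47. Genes of T cell receptor signalling had them at 6 of 25, 18.6% of 156 regions, and 11.7% of 120 without Cblb. Costimulatory and coinhibitory receptors had them at 7 of 17 genes, 18.9% of 95 regions, including 6 inside Cd226, a costimulatory receptor gene, and 5 near or in Icos. The 6 Cd226 regions lay within 48.4 kb, and the widest, 5414 bp, had folds of 3.34, 5.41 and 2.45. The AP-1 and BATF list had 5 regions at 3 of 16 genes, the cytokine receptor and STAT list 7 at 6 of 28, and genes of rival helper and regulatory lineages 9 at 4 of 15, out of 50 regions with 3 WT peaks. The AP-1 and cytokine receptor counts were 15.6% and 10.8% of regions with 3 WT peaks.

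Metabolic genes had few regions with 3 WT peaks and few WT-only regions. Of 25 genes of glucose uptake and glycolysis, 3 had any: Slc2a3 with 2, and Pdk1 and Pfkfb3 with 1 each, 12.5% of 32 regions with 3 WT peaks, near the 15.1% over all. In Slc2a3, the floxed gene, the region at chr6:122760709-122762026 had WT folds of 3.68, 4.89 and 6.34 and a value of -1.89 in the authors' deposited table, and the one at chr6:122759058-122759922 had folds of 2.69, 2.55 and 3.52. A peak inside the deleted stretch would be lost with its DNA, and no source used here gives the position of that stretch. The Pdk1 region, 5.59 kb from this kinase gene of pyruvate dehydrogenase, had folds of 2.95, 1.96 and 2.09. Of 31 genes of acetyl-CoA supply and histone acetylation, 4 had WT-only regions, and 7 of the 10 lay in Hdac9, a deacetylase gene. The others were 1 each at Acss2, which makes acetyl-CoA from acetate, Hdac4 and Kat6b. The share was 23.3% of 43 regions with 3 WT peaks, and 10.3% of 29 without Hdac9. The 21 genes of the respiratory chain and mitochondria had 0 WT-only regions of only 4 with 3 WT peaks.

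Genes of other cell types had few regions. B cell genes had 2 WT-only regions, both near or in Ebf1, of 7 with 3 WT peaks (28.6%). CD8 T and NK cell genes also had 2 of 7 (28.6%), at Klrb1c, myeloid genes 1 of 9, at Fcgr3, and erythroid genes 0 of 1. Their part in the results was not tested.

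The highest folds inside genes were in Ncam1 (chr9:49730593-49734412), a cell adhesion gene, with 15.87, 6.37 and 12.59 in the WT libraries. Nek7, a kinase of the inflammasome pathway, had 5.20, 12.38 and 8.69. Bfsp1, Sema4f and Amdhd1 had at least 7.79, 7.98 and 8.48 in each WT library. Between genes, the highest were 17.9 kb from Ptpn11 (13.37, 10.44 and 9.95) and 23.7 kb from Pnrc1 (8.93, 10.04 and 12.60). The last pair had log2 fold changes of -3.04 (FDR 2.96e-31) and -3.28 (FDR 7.81e-24) in the authors' deposited table. The widest region between genes spanned 11578 bp, 8.71 kb from Iyd, with folds of 6.61, 8.53 and 8.44. The farthest from any protein-coding gene was 1283 kb from Kcnt2, with folds of 4.63, 4.74 and 4.70.

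At the edge of the rule, the members taken as weakest included regions in Fto (folds of 2.63, 2.48 and 3.27) and near Icos (3.03, 2.47 and 3.24). They were not ranked by fold, and other members had lower folds. The strongest regions just outside it had 3 WT peaks and 1 KO peak. In Nfyc the KO fold was 5.88 in replicate 2 alone, against WT folds of 9.90, 10.64 and 13.64. Near Prkcq it was 3.23 in KO replicate 1 alone, against 13.31, 8.99 and 13.64 in WT. By distance, 44 members lay 2 to 2.5 kb from a gene end, and 54 regions with the same peak pattern were left out at 1.5 to 2 kb.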

How the data were processed

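H3K9/14ac ChIP libraries (3 KO, 3 WT) were made by RELACS, in which nuclei are barcoded before pooling. Per the submitters' processing notes, MACS2 2.2.6, deepTools 3.3.2, Bowtie2 2.3.5.1, cutadapt 2.8 and bcl2fastq 2.20.0.422 were used, with builds GRCm38 and mm10. The authors called peaks per library, and the deposited lists hold a score per peak, its fold over background (a ratio) and its significance as −log10 of p and q. The authors' deposited table gives, for regions of 150 bp windows, counts of windows, a log2 fold change, a p-value and its FDR. No source used here states its scaling, or whether input served as a control. It holds no value per library, so no fit was repeated.

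Peaks called on read pairs were joined where they overlapped or touched. A library counted as present on 1 bp of overlap, and 1 scaffold region was left out. Gene spans are the 21887 protein-coding genes of RefSeq GRCm38.p6, without strand or exons; promoter windows and microRNAs are from the same build. A region inside several genes was named by the shortest. Of the table's significant regions 98.0% were rebuilt exactly from single-read peaks, and 9 regions of the table were not located. Where several table regions overlapped a member, the lowest FDR was used. Fragment height and background were solved from the deposited fold and p-value. Mean coverage is the smallest background that 50 or more peaks had in common, divided by the recovered scale of peak heights. That scale was 0.89 in WT replicate 1, 0.92 in WT replicate 2 and 1.00 in the other libraries. The method returned heights within 0.02 fragments for at least 99.7% of peaks per library used, and was tested on simulated data. Values cover counting error only as far as peaks were called. Python 3.11.15, numpy 2.4.6, pandas 2.3.3 and scipy 1.17.1 were used.

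The members and gene lists were chosen with earlier results of these data known. Named genes are the 12 with the most members inside, the 8 nearest to the most members between genes, the 8 widest, 8 strongest and 8 farthest members, up to 4 genes per list, the 5 members at each side of the rule and 10 fixed genes, without Gm and Rik symbols. Other genes were named after their values were seen. Some items the rule takes are not reported here. Alternatives were equal numbers of peaks, single-read peaks, peaks with −log10 q from 5 up, other overlaps and distances, and leaving out each library.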

Additional observations from a re-analysis of the deposited data

How the results depend on the processing

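The number of WT-only regions stayed within 1.5 times of 2424 under every alternative tried (1834 to 3545), and the share inside genes between 44.9% and 47.8%. Leaving out 1 library gave 2868 to 3545 WT-only regions, and 1236 to 1919 KO-only regions against 1078, with 1919 without KO replicate 1 and 1716 without KO replicate 3. A like count did not mean like regions: 15.5% of members overlapped a WT-only region of the single-read lists, and 66.0% one of peaks with a −log10 q of at least 5. The mean share with a peak in the left-out library was 16.1% for KO and 73.2% for WT, and ranged over alternatives from 15.3% to 16.1% and from 72.7% to 73.8%. Scaling the deposited table by mean coverage moved the median log2 fold change of members to -1.42 from the -1.71 deposited. At an FDR of 0.01, 90.5% of members in the table were called lower.

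The coverage difference of KO minus WT, -1.46, was -1.72 to -1.21 with 1 library left out. With at least 200 peaks sharing the background it was -2.83, because WT replicate 2, with 179 such peaks, was then read at 7.59. With a replicate block the exact sign-flip p was 0.25, the smallest for 3 pairs. Same-numbered libraries did not deviate together in log2 peak folds over regions of all 6 libraries (correlation -0.020 to 0.005). Differently numbered ones gave -0.025 to 0.025. This check reads only the strongest peak per region, so it cannot exclude that the numbers pair libraries. Depth limits every absence here: a KO library called no peak under a fold of 3.65 at mean background.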

Other observations

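A few regions stood apart and were picked after their values were seen. The only member called higher in KO in the authors' deposited table lay 64637 bp from Cr2 (chr1:195241517-195242037), with a log2 fold change of 0.44 (FDR 0.0249). Its WT folds were 5.75, 6.26 and 7.23, with −log10 q values of 279, 277.8 and 342.3, while no KO library had a peak. The 1 other member above 0 in the authors' deposited table was 123193 bp from Mdm1, at 0.19 (FDR 0.9075).

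Antigen receptor loci held several members between protein-coding genes. The annotated span of Igh on chromosome 12 overlapped 6, Tcra on chromosome 14 overlapped 5 and Tcrb on chromosome 6 overlapped 3. Of the 1312 members between protein-coding genes, 6 overlapped a variable segment, among them Ighv8-6, Ighv8-8, Trav10 and Trbv20, against 2 of 432 KO-only regions, 13 of 4441 regions with a peak in all 6 libraries and 44 of 19728 regions in all between genes. The region over Ighv8-6 (chr12:115165413-115166710) had WT folds of 2.49, 4.92 and 2.60 and a log2 fold change of -1.74 in the authors' deposited table (FDR 6.35e-07).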
